A study of Homo sapiens with 6 samples.

Results

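In IMR90 human lung fibroblasts, 1526 promoter loci had a listed peak of the cohesin subunit SMC1 in all 3 conditions profiled. No listed CTCF peak overlapped them in any condition. They were chosen by a rule on the deposited peak lists of chromosomes 1 to 22 and X. Peaks of the 3 SMC1 lists that overlapped by at least 1 bp were merged into 22580 loci, of which 8247 held a peak from every list. Of these 8247 loci, 1526 (18.5%) touched no peak of any CTCF list and lay at the 5′ end of a protein-coding gene, taken with 1 kb on each side. They overlapped such 1 kb windows at the 5′ ends of 1842 of 19630 protein-coding genes, which is 9.38% of all those tested. Presence in the SMC1 lists, absence from the CTCF lists and the promoter position are what selected the loci, so none of these is a result. When peaks were instead joined by 100 bp windows around their summits, the rule gave 946 loci and 5.79% of genes.

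Cohesin is a ring of SMC1, SMC3 and RAD21 bound by a STAG subunit, and it holds DNA together within and between molecules. It is loaded by NIPBL and MAU2, moves along the fibre as it extrudes loops, and is released by WAPL. CTCF is the DNA-binding protein that best stops its movement, and many cohesin peaks in mammalian cells sit on CTCF sites. Active promoters and enhancers are the other well-known places at which cohesin is detected, often without CTCF.

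Cohesin was mapped with an antibody against SMC1 and CTCF with its own antibody by CUT&Tag, in which an antibody directs a transposase to cut the chromatin where its target lies. The control, ICM-treated and senescent groups had 1 library each per antibody, 6 in all. ICM is inflachromene, a small molecule that binds HMGB1 and HMGB2. Titles carry the p number 16 for the control and ICM-treated SMC1 libraries and 34 for the senescent one, whereas the CTCF libraries carry 21, 16 and 34 in this order. The CTCF label gives 6 days of ICM and the SMC1 label gives no duration, and the senescent cells came from continuous passaging rather than from a treatment. Because the passage number differed between the control and senescent libraries, passage and senescence cannot be told apart. The cells were in bulk, so fewer cells with cohesin at a promoter and less cohesin per cell cannot be told apart either. With 1 library per group no difference could be set against a spread between replicates, and no p-value is given. Intervals are 95% intervals over loci or genes and cover counting error only.

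Each SMC1 list held the strongest 1% of regions of its library, which came to 14883, 17809 and 12927 peaks for control, ICM-treated and senescent cells. Depth is unknown, and no common scale between the lists could be established. The lowest total signal in a list, that is coverage summed over a peak, was 3456, 2455 and 2796 in the same order, and no locus can lie below it. The CTCF lists held 4673, 6728 and 8577 peaks, so "without CTCF" means without a peak strong enough to be listed. As a check on the labelled cell type, 8 of 13 fibroblast marker genes had an SMC1 locus of at least 1 list at the 5′ end, VIM, COL1A1, COL1A2, PDGFRA and SPARC in all 3 lists. None of the 7 epithelial and 3 endothelial markers and 1 of 9 blood markers (CD68) had one. Of all protein-coding genes, 61.7% had no SMC1 locus of any list at the 5′ end, and 19.5% had one of all 3 lists. A peak marks cohesin at a gene and not its expression.

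Promoter windows of 8 genes are shown, running from 250 bases before to 50 bases after the RefSeq start (GRCh38.p14), on the strand of the gene from 5′ to 3′. SLC2A1, MAP4 and C2CD3 had the highest SMC1 rank over the 3 lists. SLC12A4 and FOS had the largest positive and negative difference between the senescent and control lists, TGFB2 and FGFR1OP2 those between the ICM and control lists, and SMC1A encodes the protein that was mapped. Capitals mark matches, on either strand, to the motifs described further on (SP/KLF, NFY, ETS, TATA box and E-box in these windows). The windows lie at chr1:42958819-42959118 (SLC2A1, minus strand), chr3:48088799-48089098 (MAP4, minus), chr11:74170953-74171252 (C2CD3, minus), chr16:67968645-67968944 (SLC12A4, minus), chr14:75278578-75278877 (FOS, plus), chr1:218345086-218345385 (TGFB2, plus), chr12:26938220-26938519 (FGFR1OP2, plus) and chrX:53422679-53422978 (SMC1A, minus). All 300 bases of each window lie inside its SMC1 locus.
SLC2A1: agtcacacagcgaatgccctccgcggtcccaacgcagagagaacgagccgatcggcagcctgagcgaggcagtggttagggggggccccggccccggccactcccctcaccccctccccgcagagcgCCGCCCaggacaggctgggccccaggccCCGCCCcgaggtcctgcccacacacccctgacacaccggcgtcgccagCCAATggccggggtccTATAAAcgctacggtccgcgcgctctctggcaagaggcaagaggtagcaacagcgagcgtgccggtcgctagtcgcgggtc
MAP4: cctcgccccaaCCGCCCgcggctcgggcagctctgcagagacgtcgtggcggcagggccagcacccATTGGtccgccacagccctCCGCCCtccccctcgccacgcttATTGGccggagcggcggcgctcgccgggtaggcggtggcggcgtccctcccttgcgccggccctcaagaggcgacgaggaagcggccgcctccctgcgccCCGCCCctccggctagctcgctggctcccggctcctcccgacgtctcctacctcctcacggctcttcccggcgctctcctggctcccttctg
C2CD3: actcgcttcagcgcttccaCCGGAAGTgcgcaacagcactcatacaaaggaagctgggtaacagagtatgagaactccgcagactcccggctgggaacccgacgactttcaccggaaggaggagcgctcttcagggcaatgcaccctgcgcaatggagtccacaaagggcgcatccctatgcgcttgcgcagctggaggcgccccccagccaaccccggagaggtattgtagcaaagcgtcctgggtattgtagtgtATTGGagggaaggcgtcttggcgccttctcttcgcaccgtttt
SLC12A4: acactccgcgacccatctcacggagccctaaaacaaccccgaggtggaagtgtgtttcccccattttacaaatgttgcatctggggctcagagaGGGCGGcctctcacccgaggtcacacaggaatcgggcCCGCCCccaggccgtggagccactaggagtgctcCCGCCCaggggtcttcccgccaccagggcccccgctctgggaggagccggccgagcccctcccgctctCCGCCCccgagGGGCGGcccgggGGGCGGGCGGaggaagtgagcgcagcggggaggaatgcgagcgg
FOS: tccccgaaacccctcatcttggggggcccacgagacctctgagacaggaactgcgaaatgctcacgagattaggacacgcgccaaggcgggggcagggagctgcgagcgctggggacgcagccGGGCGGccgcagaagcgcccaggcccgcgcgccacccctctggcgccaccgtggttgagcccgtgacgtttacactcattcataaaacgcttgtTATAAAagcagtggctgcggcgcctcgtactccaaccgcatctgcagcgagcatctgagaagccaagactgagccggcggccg
TGFB2: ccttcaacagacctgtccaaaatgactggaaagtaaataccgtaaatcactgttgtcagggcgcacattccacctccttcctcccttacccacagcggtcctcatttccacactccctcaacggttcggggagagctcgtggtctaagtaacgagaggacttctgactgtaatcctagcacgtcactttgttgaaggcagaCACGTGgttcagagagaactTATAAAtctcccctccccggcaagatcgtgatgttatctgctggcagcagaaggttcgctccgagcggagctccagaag
FGFR1OP2: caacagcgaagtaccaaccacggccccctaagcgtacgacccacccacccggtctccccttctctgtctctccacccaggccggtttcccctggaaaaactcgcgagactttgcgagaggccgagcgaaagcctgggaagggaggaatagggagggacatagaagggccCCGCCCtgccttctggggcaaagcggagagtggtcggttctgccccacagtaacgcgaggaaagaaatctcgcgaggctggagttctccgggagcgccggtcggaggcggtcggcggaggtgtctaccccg
SMC1A: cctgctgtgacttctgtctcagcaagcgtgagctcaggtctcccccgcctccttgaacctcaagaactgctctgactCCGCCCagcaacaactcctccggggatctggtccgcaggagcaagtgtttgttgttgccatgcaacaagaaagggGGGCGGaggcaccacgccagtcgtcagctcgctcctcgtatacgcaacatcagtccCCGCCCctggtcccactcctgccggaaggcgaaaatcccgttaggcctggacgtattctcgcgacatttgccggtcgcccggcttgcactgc

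The 8 windows differ in make-up. That of MAP4 was 75% GC with 37 CpG dinucleotides, 3 SP/KLF and 2 NFY matches, and that of SLC12A4 held 7 SP/KLF matches, some of them overlapping. The TGFB2 window had the lowest GC of the 8, at 51.7%, with 14 CpG, a TATA box and an E-box. FOS and SLC2A1 also held a TATA box match, and C2CD3 was the 1 window of the 8 with an ETS match. SMC1A had 61.0% GC and 3 SP/KLF matches.

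The median width of the loci was 1275 bp, from 574 bp at ZSWIM8 to 5484 bp at SLC2A1, and 1473 of the 1526 held exactly 1 peak from each list. A locus met the 5′ end window of 1 gene in 1214 cases, of 2 genes in 300 and of 3 genes in 12. A listed CTCF peak lay within 1 kb of 28 loci and within 10 kb of 215 (14.1%), against 18.0% of distal loci without CTCF within 10 kb. The median distance was 58.7 kb, against 55.3 kb for those distal loci. Both classes were chosen to overlap no CTCF peak, so these distances partly follow from the choice. They also depend on the cut of the CTCF lists, whose lowest totals were 14246, 20161 and 6267 for control, ICM-treated and senescent cells. The nearest CTCF peaks were 72 bp from the KIRREL1 locus and 93 bp from that of FTL, the ferritin light chain. At the edge of the promoter rule, the loci of PXT1 and PPRC1 lay 990 and 969 bp from the 5′ end and were inside, and loci 1008 bp from CLEC9A and 1014 bp from ZBTB9 were outside. The PXT1 locus had total signals of 6911, 4898 and 3012 in the control, ICM and senescent lists. The locus outside CLEC9A had 8763, 5670 and 2829, so the signals on either side of the edge were of a similar size.

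Among loci of all 3 lists, 47.5% of the 3213 promoter loci and 53.2% of the 5034 distal ones had no CTCF peak. Asking for presence in all 3 lists set aside a larger number of promoter loci without CTCF, 1351 found in 1 list and 1316 found in 2. Of the latter, 922 were missing from the senescent list, 260 from the ICM list and 134 from the control list, and the senescent list was also the shortest. The 1687 promoter loci with CTCF serve below as the closest comparison, with the 2677 distal loci without CTCF. Of the 1687, 981 met a peak of every CTCF list, and 315 were set aside by a peak of the ICM CTCF list alone.

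The CTCF-free promoter loci ranked below promoters with CTCF in every list. The percentile of a locus is its rank by total signal among all loci of the same list, which needs no scale between lists. The median percentile was 67.7 (66.0 to 69.2) in the control, 65.1 (63.4 to 66.8) in the ICM and 54.9 (52.5 to 57.5) in the senescent list. Promoters with CTCF had 85.0, 84.0 and 79.6, and distal loci without CTCF 55.4, 67.5 and 54.0. Loci found in all 3 lists were selected for presence in each, so the classes were also ranked among the 8247 shared loci alone. The medians were then 49.6, 38.6 and 40.4 for the CTCF-free promoters, 74.4, 67.7 and 70.2 for promoters with CTCF and 35.5, 41.9 and 39.5 for distal loci without CTCF. On both rankings the CTCF-free promoters lay above distal loci in the control list and below them in the ICM list. Ranked by the highest coverage reached in a peak, the medians were 60.1, 47.2 and 49.4, below those of distal loci without CTCF in the ICM and senescent lists (63.3 and 58.1) and above theirs in the control (56.5). In the top 10% of all 3 lists were 35 of the 1526 (2.29%), against 357 of 1687 (21.2%) with CTCF. Distal loci without CTCF had 68 of 2677 (2.54%) there. Of the 1526, 0 were in the bottom 10% of all 3.

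**Figure D1:**
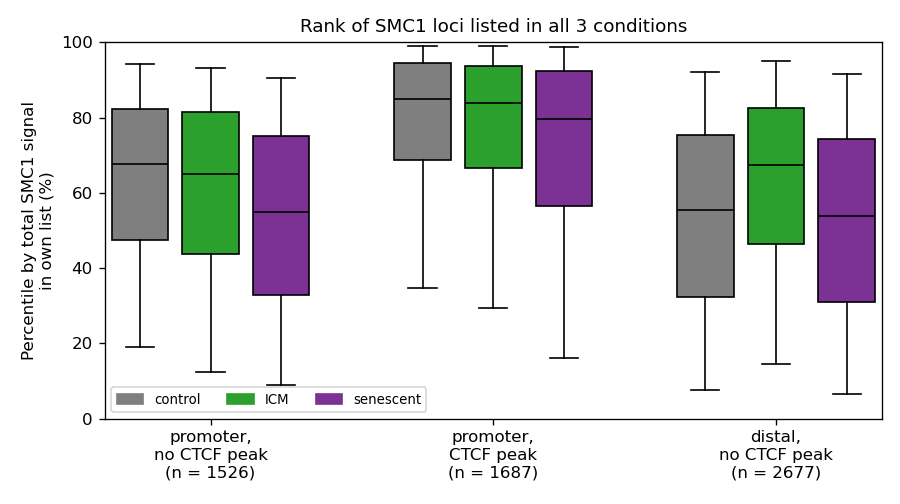
Percentile of SMC1 loci by total signal within their own list (y axis, %), for 3 classes of loci present in all 3 lists (x axis) and the control, ICM-treated and senescent libraries (colours). Boxes span the quartiles, the line is the median and whiskers run from the 5th to the 95th percentile of loci. Medians of the CTCF-free promoter loci are 67.7, 65.1 and 54.9, and those of promoters with CTCF lie higher in each list.

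The 10 loci with the highest mean percentile were at SLC2A1, MAP4, C2CD3 with PPME1, RAB30, MGAT5, CEP290 with TMTC3, DAAM1, PLAU, RELL1 and KCTD7. SLC2A1 encodes the glucose transporter GLUT1, and its locus at chr1:42958480-42963963 had total signals of 26909, 17804 and 19874 in the control, ICM and senescent lists, at percentiles 99.0, 99.1 and 99.8. It was the widest of the 1526 and the highest of them in the senescent list by total signal, although its highest coverage was 59, 32 and 17. MAP4, a microtubule-associated protein, had 28372, 13976 and 12602 (percentiles 99.2, 97.6 and 97.7), the largest control value of all 1526 loci. C2CD3, needed to build cilia, shares its locus with PPME1, a protein phosphatase methylesterase, and had 21708, 16576 and 11253. CEP290, another ciliary gene, shares a locus of 1188 bp with TMTC3 on the opposite strand and stood at percentiles 96.7, 96.2 and 96.9. PLAU, the urokinase plasminogen activator, was at 98.2, 97.5 and 93.3, with its summits at -2056, -2040 and -1974 bp from the annotated 5′ end. All 10 were above the 93rd percentile in every list.

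SMC1 summits lay just upstream of the gene start in both promoter classes, which were chosen within 1 kb of a 5′ end. The summit of a peak, taken as the midpoint of its region of highest coverage, lay at a median of -75.5 bp from the 5′ end in the control, -76.0 bp in the ICM and -65.0 bp in the senescent list. It was within 250 bp of the 5′ end at 75.3% of loci in the control, 72.6% in the ICM and 68.2% in the senescent list. Promoters with CTCF had 64.1%, 60.3% and 57.3%, and their median summit positions were -88.0, -85.0 and -85.0 bp. The share with the summit inside the gene was 31.1%, 32.9% and 36.8%, against 31.7%, 33.2% and 37.3% at promoters with CTCF. Between the control and ICM lists the summits of a locus lay a median of 38.5 bp apart, and 77.4% of them within 100 bp, while senescent summits were a median of 60 bp from control ones and 65.0 bp from ICM ones. The distances were alike at promoters with CTCF (37, 61 and 62 bp). The median peak width at the 1526 loci was 1002, 867 and 1036 bp, and the median highest coverage was 23, 15 and 11. The part of width and coverage in the summit distances was not tested.

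**Figure D2:**
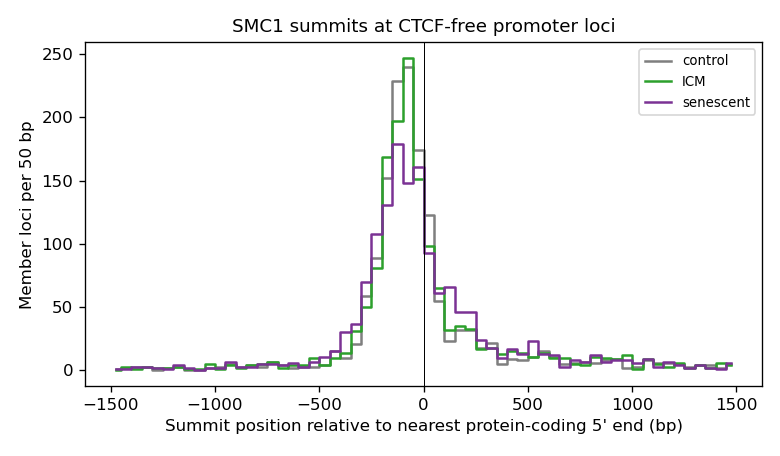
Number of CTCF-free promoter loci per 50 bp (y axis) by the position of the SMC1 summit relative to the nearest protein-coding 5′ end (x axis, bp, negative is upstream), 1 line per library. The 3 lines peak upstream of the 5′ end, at medians of -75.5, -76.0 and -65.0 bp, and the senescent line is the lowest at the peak.

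A part of these promoters had gene starts on both strands. At 296 of the 1526 loci (19.4%, 17.4 to 21.5) the locus overlapped the 1 kb windows of 5′ ends on both strands. The share was 18.5% (16.7 to 20.4) of promoters with CTCF. Counted by gene, 31.2% of the 1842 genes had a 5′ end of the opposite strand within 1 kb, 29.0% of genes at promoters with CTCF, and 13.7% of all protein-coding genes. A locus that meets the windows of several genes brings all of them in, so the share by gene is partly set by how loci were counted. Bidirectional loci had a median percentile of 68.7 in the control, 66.9 in the ICM and 61.8 in the senescent list, and the other loci 67.3, 64.4 and 53.3. The genes were also long, with a median of 33.1 kb against 21.96 kb for genes at promoters with CTCF and 24.8 kb for all. By chromosome, between 7.64% and 11.98% of the genes of an autosome were included, and 2.49% of the 843 genes of chromosome X. A lncRNA gene was overlapped by 23.9% of the loci, against 24.4% of promoters with CTCF and 22.1% of distal loci without CTCF. Other RNA genes were rare there: 14 loci overlapped a miRNA gene, 5 a tRNA gene and 5 a snoRNA gene.

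The promoter windows were rich in CpG dinucleotides and held several short motifs more often than the background. A window was found for 1518 of the 1842 genes (82.4%) and for 1614 of 1999 genes (80.7%) at promoters with CTCF. A gene of either class entered with a single window, the nearest to its 5′ end within 1 kb. The background is the 22156 protein-coding windows of the RefSeq table, in which a gene can have several. The part of this unlike choice of windows in the contrasts with the background was not tested. Median GC was 65.0%, against 66.3% with CTCF and 62.3% in all windows. The ratio of observed to expected CpG had a median of 0.848, against 0.837 and 0.738, and it was at least 0.6 in 89.3% of the windows, against 88.6% and 62.2%. Both promoter classes therefore resembled each other more than the background.

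Motifs were searched as exact letters on both strands. CCGGAAGT, the core bound by ETS factors, was in 11.1% (9.53 to 12.7) of the windows, against 5.89% (4.79 to 7.15) at promoters with CTCF and 5.35% in all windows. Bidirectional partners can share a match, and with only the gene nearest to each locus the share was 9.77% (8.17 to 11.6). The CTCF core letters AGGGGGCGC or AGGTGGCAG were in 1.65% (1.07 to 2.42), against 4.77% (3.78 to 5.93) with CTCF and 3.23% in all windows. Since CTCF peaks were used to choose the loci, that contrast is a description of the choice.

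Other motifs set both promoter classes apart from the background without a gap between the classes of similar size. NRF1 letters (GCGCATGCG) were in 5.14% of the windows, 4.58% with CTCF and 2.36% of all. YY1 letters (AAGATGGCG) were in 4.94%, 4.40% and 2.42%, and the short CCAAT of NFY in 46.0%, 43.2% and 34.6%. GGGCGG of SP/KLF factors was in 72.8%, 76.6% and 56.3%. The E-box CACGTG was in 11.7%, 10.3% and 8.34%, the CRE letters TGACGTCA in 3.43%, 3.22% and 2.26%, and ACTACAATT of ZNF143 in 0.988%, 0.743% and 0.379%. TATAAA went the other way, with 4.55%, 4.83% and 9.46%, as did TGANTCA of AP-1, with 3.89%, 3.90% and 6.16%. Loci with an ETS match (121) had a median percentile of 64.3, 63.8 and 55.6 in the control, ICM and senescent lists, and loci without (1121) 68.4, 65.2 and 55.4. A match is a run of letters in the window and not a bound site.

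For the comparison between conditions, the total signal of each locus was divided by the median over the 8247 loci present in all 3 lists, which gives a relative signal within each list. Differences are given on the log2 scale, and a locus was counted as higher or lower at a 2-fold difference or more. The order of loci was kept better between control and ICM than with senescence: Spearman's rho of total signal over the 1526 loci was 0.689 for control with ICM, 0.408 for control with senescent and 0.392 for ICM with senescent. At promoters with CTCF it was 0.810, 0.661 and 0.672, and at distal loci without CTCF 0.62, 0.43 and 0.42. These coefficients run over loci that share libraries and are given as a description.

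Relative to all loci of the 3 lists, the CTCF-free promoters had lower relative signal in the ICM and senescent lists than in the control list, and so did promoters with CTCF. In the ICM list against control the median log2 difference was -0.19 (-0.22 to -0.16) over the 1526 loci, -0.19 at promoters with CTCF, 0.11 at distal loci without CTCF and -0.01 over all loci. Of the 1526, 50 (3.28%) were at least 2-fold lower and 10 (0.655%) at least 2-fold higher, where 2.34% and 2.05% of all loci were. In the senescent list against control the median was -0.10 (-0.15 to -0.07), with -0.16 at promoters with CTCF, 0.14 at distal loci without CTCF and 0.03 over all loci. Here 84 (5.50%) were lower and 37 (2.42%) higher, where 4.13% and 4.43% of all loci were. The difference from distal loci was thus seen in both promoter classes. When each list was scaled to the median of all its loci instead of the shared ones, the senescent against control median was -0.29. The median over all loci moved to -0.15. On that scale 18 of the 1526 (1.18%) were higher and 166 (10.9%) lower, where 2.2% and 7.74% of all loci were. The ICM against control median was -0.08 on that scale, with 0.10 over all loci. There, 14 (0.917%) were higher and 37 (2.42%) lower, where 3.47% and 1.6% of all loci were.

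In the senescent list against the ICM list the median was 0.08 (0.05 to 0.12), with 0.04 over all loci. This direction turned with the scaling: against the median of all loci in each list it was -0.21, with -0.26 over all loci. On that scaling 25 (1.64%) were higher and 115 (7.54%) lower, where 1.43% and 8.86% of all loci were. On the main scale, 85 (5.57%) were higher and 34 (2.23%) lower, where 4.57% and 2.86% of all loci were. By mean coverage 40 (2.62%) were higher and 44 (2.88%) lower, where 2.98% and 3.19% of all loci were. In all 3 comparisons, 1291 of the 1526 (84.6%) stayed within 2-fold, and 84.5% of all loci did. Most of the counted loci had the same sign by highest coverage (79 of 84 lower and 35 of 37 higher in senescent against control; 50 of 50 and 8 of 10 in ICM against control). Fewer of them also reached 2-fold by that measure, with 34, 15, 16 and 1 in the same order. GC content of the window had little relation to the differences, with a rho of -0.06 for senescent against control and -0.10 for ICM against control over 1242 loci.

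**Figure D3:**
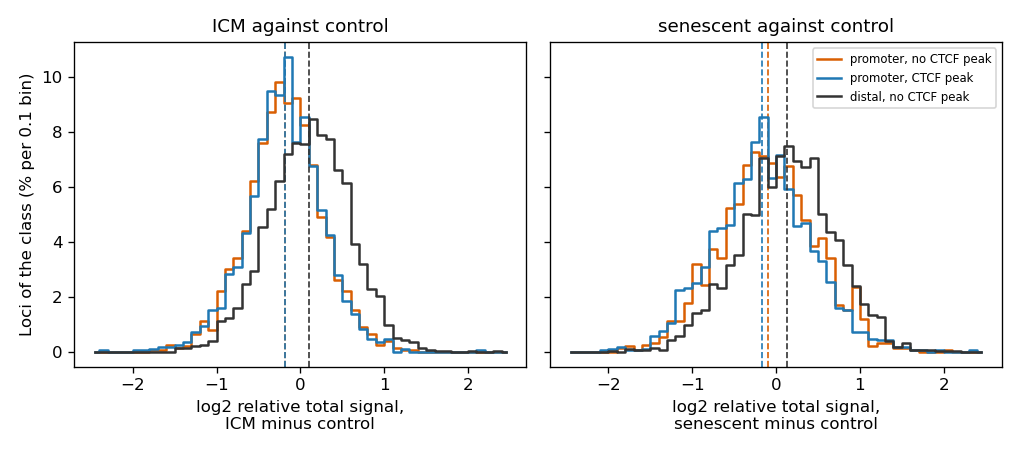
Distribution of the log2 difference in relative total SMC1 signal (x axis) for 3 classes of loci, as the percent of the class per bin of 0.1 (y axis), with ICM against control on the left and senescent against control on the right. Dashed lines are class medians, which are -0.19 and -0.10 for CTCF-free promoters, -0.19 and -0.16 for promoters with CTCF and 0.11 and 0.14 for distal loci without CTCF.

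The locus of SLC12A4, a potassium-chloride cotransporter, had the largest positive difference between the senescent and control lists. Its total signal was 3897, 2614 and 9962 in the control, ICM and senescent lists, at percentiles 13.8, 7.92 and 94.8. The difference was 2.03 by total and 1.19 by highest coverage, and the control and ICM totals lie near the floor of their lists. ZMIZ1, a transcriptional coregulator, had 4494, 6623 and 8991, and ZBTB47, a zinc finger gene, 6750, 8899 and 12556. Both were lowest in the control and highest in the senescent list, with differences of 1.68 and 1.57. AKR1A1, an aldehyde reductase, followed with 1.51 (3534, 3214 and 6293), and ACTG1, the cytoplasmic gamma actin, with 1.46 (3593, 2794 and 6195). The control totals of AKR1A1 and ACTG1, at percentiles 2.66 and 4.66, also lie near the control floor of 3456. The ACTG1 difference was 0.30 by highest coverage, and that of ZMIZ1 0.32. By mean coverage, which is total signal per base of peak, AKR1A1 alone of the 5 stayed beyond 2-fold (1.18), and SLC12A4, ZMIZ1, ZBTB47 and ACTG1 had 0.88, 0.37, 0.88 and 0.70.

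FOS, the immediate early gene that encodes an AP-1 subunit, was lowest in senescent against control. Its locus had a total of 17535, 6629 and 3096 in the control, ICM and senescent lists, at percentiles 95.5, 81.6 and 15.7. The difference was -1.82 by total and -0.39 by highest coverage, and the summit lay at -271 bp from the 5′ end in the control but at -1689 and -1616 bp in the other 2 lists. FOXN2, a forkhead factor, had 22511, 10924 and 4041 with the summit in place about 700 bp inside the gene (710, 699 and 702 bp). Its difference was -1.80 by total and -1.25 by highest coverage. YWHAZ, a 14-3-3 protein, had -1.76 (22000, 12449 and 4048). ABCA1, the cholesterol exporter, had -1.75 (15862, 7741 and 2946), and PCF11, a 3′ end processing factor, -1.71 (19269, 5824 and 3676). The senescent totals of FOS and ABCA1 lie near the senescent floor of 2796. In 4 of these 5 loci the difference was also beyond 2-fold by highest coverage, FOS being the exception. By mean coverage PCF11 alone of the 5 stayed beyond 2-fold (-1.76), and FOS, FOXN2 and YWHAZ had -0.46, -0.54 and -0.99. The ABCA1 difference turned to 0.14 by that measure, the listed peaks being 2130, 1432 and 589 bp wide in the control, ICM and senescent lists.

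In ICM against control, the largest positive difference was at TGFB2, a TGF-beta ligand. Its totals were 3916, 7207 and 3817 in the control, ICM and senescent lists, a difference of 1.34 by total and 1.07 by highest coverage. The ICM library alone was high, at percentile 84.6 against 14.4 and 42.0. The control total lies near the control floor of 3456. FLRT2, a cell-surface protein, had 5412, 9479 and 3286 (difference 1.26) with a CTCF peak 532 bp away. UQCC5, an assembly factor of respiratory complex III, had 4427, 7241 and 4783 (difference 1.17). By highest coverage FLRT2 and UQCC5 differed by 0.17 and 0.22, below the 2-fold that TGFB2 kept. By mean coverage none of the 3 reached 2-fold, with 0.25 at TGFB2, 0.61 at FLRT2 and -0.27 at UQCC5.

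The lowest locus in ICM against control was that of FGFR1OP2 and INTS13, which start on opposite strands, with totals of 11618, 2532 and 4123 in the control, ICM and senescent lists. The ICM total is close to the floor of 2455, and the difference was -1.74 by total and -0.71 by highest coverage. DDX59, an RNA helicase, had 12225, 3021 and 5748. TRERF1, which shares its locus with LOC124900214, had 10271, 2568 and 6754, and PKM, the pyruvate kinase of glycolysis, 11910, 2994 and 9173. The last 3 were low in the ICM list and above the median of shared loci in the senescent one, with senescent against ICM differences of 1.15, 1.62 and 1.84. The ICM total of TRERF1 is also close to the floor. By mean coverage none of these 4 loci reached 2-fold in ICM against control, with -0.59 at FGFR1OP2, -0.86 at DDX59, -0.58 at TRERF1 and a turned 0.25 at PKM.

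At 11 loci the relative signal was at least 2-fold lower in both the ICM and the senescent list than in the control, at 2 it was higher in both, and at 0 the directions were opposite. These are 0.721% and 0.131% of the 1526, where 0.461%, 0.655% and 0.0121% of all 8247 loci were lower in both, higher in both and opposite. Both comparisons use the same control library, so a high control value enters both. Among the 11 were ZEB1, DUSP5, PCF11, FZD2, CDC42EP3, CREB1, ZBTB21, E2F3, and MRPS18B with PPP1R10. CREB1, the CRE-binding factor, had totals of 18938, 6306 and 4181 in the control, ICM and senescent lists, and ZEB1, a repressor of epithelial genes, 16317, 4957 and 4813. FZD2, a Wnt receptor, had 24947, 8379 and 7385, and DUSP5, a phosphatase of ERK, 10810, 3461 and 2959. The senescent total of DUSP5 is near the floor of 2796. The 2 higher in both were ZMIZ1 and PAWR, a pro-apoptotic regulator, with 3789, 5534 and 4984 at PAWR. The PAWR control total is near the floor of 3456. In ICM against control ZMIZ1 had 1.02 by total, and its sign turned to -0.20 by highest coverage.

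Several lists of genes for protein synthesis and folding had shares above that of all genes. Over all 19630 protein-coding genes the share with such a locus was 9.38%, and the lists below are read against that value without a test. Of 86 cytosolic ribosomal protein genes, 17 had one (19.8%, 11.96 to 29.8), among them RPL28, RPS27L and RPL21. Of 37 aminoacyl-tRNA synthetase genes, which charge tRNAs, 10 had one (27.0%, 13.8 to 44.1), including YARS1, KARS1 and RARS2. Of 77 chaperonin and heat shock genes, 21 had one (27.3%, 17.7 to 38.6), with HSPA5, the endoplasmic reticulum chaperone BiP, among the highest. Mitochondrial ribosomal proteins had 11 of 77, initiation factors 7 of 55 and proteasome subunits 7 of 39. Of all genes, 10.13% were counted at a promoter locus with CTCF instead, and each of these lists was above that share too. The share was 13.95% for cytosolic and 13.0% for mitochondrial ribosomal proteins, 21.6% for synthetases and 15.6% for chaperones. Initiation factors had 23.6% and proteasome subunits 20.5%. Shares above that of all genes were thus seen in both promoter classes.

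Among the genes of transcription, 11 of 42 genes for RNA polymerase II, its general factors and TAFs had a CTCF-free promoter locus (26.2%, 13.9 to 42.0), TAF9, TAF12 and GTF2E1 being highest. Mediator subunits had 4 of 30, core spliceosome proteins 5 of 62, hnRNP proteins 2 of 25 (HNRNPR and HNRNPC), replication-dependent histones 8 of 69 and zinc finger genes 48 of 509. At the spliceosome list, 17 more genes had a promoter locus with CTCF. Respiratory chain genes had 14 of 82, origin and MCM genes 5 of 27 and regulators of mitosis 5 of 26. Olfactory receptors had 0 of 386 (up to 0.951%), keratins 0 of 55 (up to 6.49%) and markers of other lung and blood cell types 0 of 19 (up to 17.6%). In 18 of the 25 lists the share was above 9.38%. With summit windows, where the share over all genes was 5.79%, 14 of 25 lists were above it. Ribosomal proteins then had 10, RNA polymerase II factors 6, initiation factors 3, immediate early genes 1, arrest genes 1 and the fibroblast matrix 0.

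**Figure D4:**
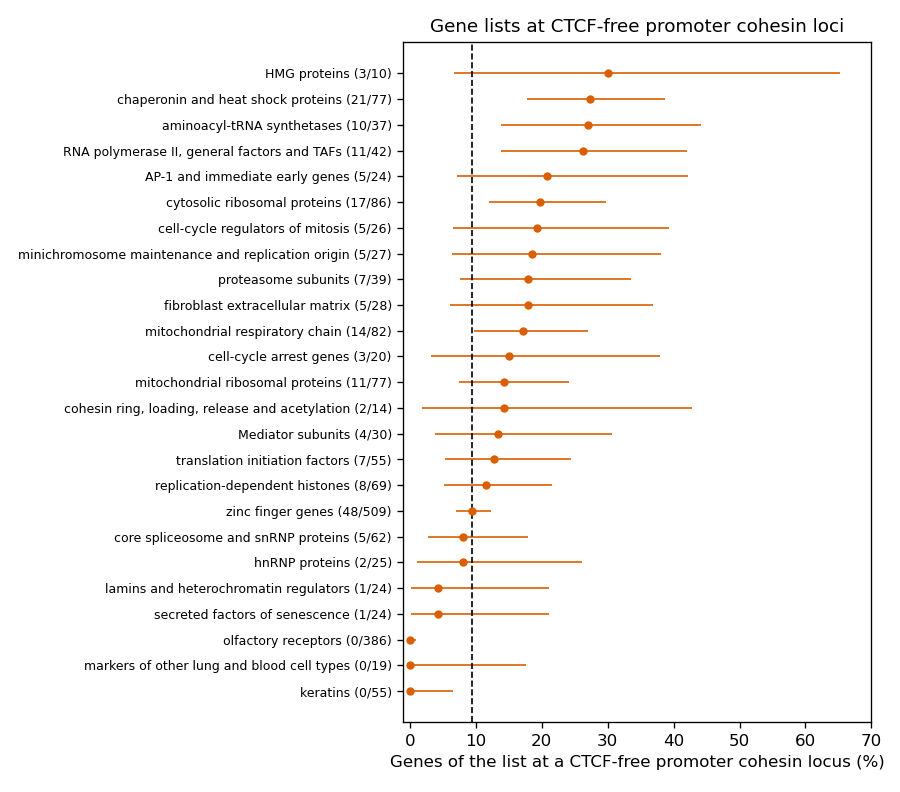
Percent of the genes of each list with a CTCF-free promoter cohesin locus (x axis), with 95% Clopper-Pearson intervals and, in brackets, genes with a locus over genes measured. The dashed line is the 9.38% of all protein-coding genes. Chaperones, tRNA synthetases, RNA polymerase II factors, ribosomal proteins and the respiratory chain have intervals that lie above the line, and olfactory receptors and keratins intervals below it.

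Within the lists, relative signal between conditions is given in the order senescent and then ICM against control. The 20 chaperone loci had a median log2 difference of -0.37 in senescent against control and -0.25 in ICM against control, and their median percentile was 78.5, 69.3 and 41.0 in the control, ICM and senescent lists. The 5 origin and MCM loci had -0.56 and -0.55, and the 5 loci of mitosis regulators -0.27 and -0.31. CDC20, which activates the anaphase-promoting complex, had totals of 10445, 6713 and 3268 (difference -0.999 in senescent against control), whereas BUB3, of the spindle checkpoint, had 10447, 6158 and 7816 (0.26). The 17 ribosomal protein loci had 0.08 and -0.06, with RPL28 at 8653, 7096 and 9564 and RPS27L at 13542, 10800 and 4256, so members of the list lay on both sides. The 11 polymerase and TAF loci had 0.48 and -0.02. The medians over all 1526 CTCF-free promoters were -0.10 and -0.19, and over all 8247 loci 0.03 and -0.01. With few loci in a list these values are a description.

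Of 14 genes of the cohesin machinery, 2 had a CTCF-free promoter locus of all 3 lists (14.3%, 1.78 to 42.8). SMC1A, which encodes the mapped subunit and shares its locus at chrX:53422167-53423361 with RIBC1, had totals of 5256, 4081 and 4793 in the control, ICM and senescent lists. Its differences were 0.54 in senescent and 0.09 in ICM cells against control. MAU2, part of the loader, shares its locus with SUGP1 and had 4994, 4653 and 7008, with differences of 1.17 and 0.35. SMC3, PDS5B, ESCO1 and STAG1 had promoter loci of all 3 lists that met CTCF, WAPL, PDS5A and STAG2 had one in some lists, and 5 genes had none.

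Of the lists, the immediate early genes were the one that most often had an SMC1 locus of any kind. An SMC1 locus was lacking at the 5′ end of 1 of 24 genes (4.17%), against 61.7% of all protein-coding genes. CTCF-free loci of all 3 lists lay at 5 genes (20.8%, 7.13 to 42.2), where 9.38% of all genes had one. They were FOS, IER5, KLF6, BTG2 and FOSL1. At 11 more (45.8%), JUN, JUNB, EGR1 and MYC included, the locus met CTCF, against 10.13% of all genes. The median difference of the 5 was -0.91 in senescent and -0.24 in ICM cells against control. IER5 had 13464, 8298 and 3474 (senescent against control -1.28), and KLF6, a zinc finger factor, 15499, 7943 and 5158 (-0.91). BTG2, an antiproliferative gene, had a positive difference with 5024, 5354 and 7404 (1.24, and 0.87 by highest coverage). FOSL1, an AP-1 subunit, had 5383, 4026 and 4033 (0.26).

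Among genes of cell-cycle arrest, 3 of 20 had such a locus. GADD45A, a stress-response gene, was high in every list with 25818, 12622 and 8503 (percentiles 98.8, 96.7 and 91.5) and a difference of -0.92 in senescent against control. E2F3, a factor bound by RB, had 12772, 3979 and 3122, which was over 2-fold lower in both other lists than in the control (-1.23 in ICM and -1.36 in senescent cells). The senescent total of E2F3, at percentile 16.9, is not far above the floor of 2796. SESN2 had 6083, 4090 and 4469 (0.23 in senescent against control). CDKN2B, PPM1D, SESN1 and GADD45B had promoter loci with CTCF, and CDKN2A, RB1 and MDM2 had a locus in some lists only.

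HMG proteins, the targets of ICM among them, had 3 of 10. HMGB1 shares its locus with USPL1 on the opposite strand and had 13551, 12003 and 7008 (percentiles 90.4, 96.2 and 85.2), with differences of 0.28 in ICM and -0.27 in senescent cells against control. HMGA2, an architectural chromatin protein, had 10671, 6596 and 2958, with differences of -1.17 in the senescent and -0.24 in the ICM list against control. The senescent difference was -0.41 by highest coverage, and the senescent total is near the floor of 2796. HMGN3 had 5217, 3660 and 3363 (0.04 and -0.06). The promoter locus of HMGB2 met CTCF. Of 24 lamin and heterochromatin genes, SUV39H2, a histone H3 methyltransferase, was the 1 with such a locus (11718, 7514 and 6023, senescent against control -0.28).

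Of 24 secreted factors of senescence, 1 had a CTCF-free promoter locus (4.17%, 0.105 to 21.1). VEGFA, IL6 and IGFBP3 had promoter loci with CTCF. Of 28 genes of the fibroblast matrix, 5 had one (17.9%, 6.06 to 36.9), with differences in both directions. FBN1, fibrillin, had 14884, 6530 and 4092 (senescent against control -1.19) and SPARC 15092, 9446 and 6167 (-0.61). COL6A3, a chain of collagen VI, had 3910, 2630 and 6030 (1.302), and TIMP3, a metalloproteinase inhibitor, 5877, 2529 and 7378 (1.00). LOXL2, a lysyl oxidase, had 6458, 2975 and 3582 (-0.17). The ICM totals of TIMP3 and COL6A3 lie near the ICM floor of 2455, and the control total of COL6A3 near the control floor of 3456. By highest coverage FBN1 differed by 0.09, TIMP3 by -0.08 and COL6A3 by 0.61. The FBN1 peaks were 3175, 1264 and 1455 bp wide and the TIMP3 peaks 1672, 538 and 2463 bp, and the part of width in the totals was not tested.

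**Figure D5:**
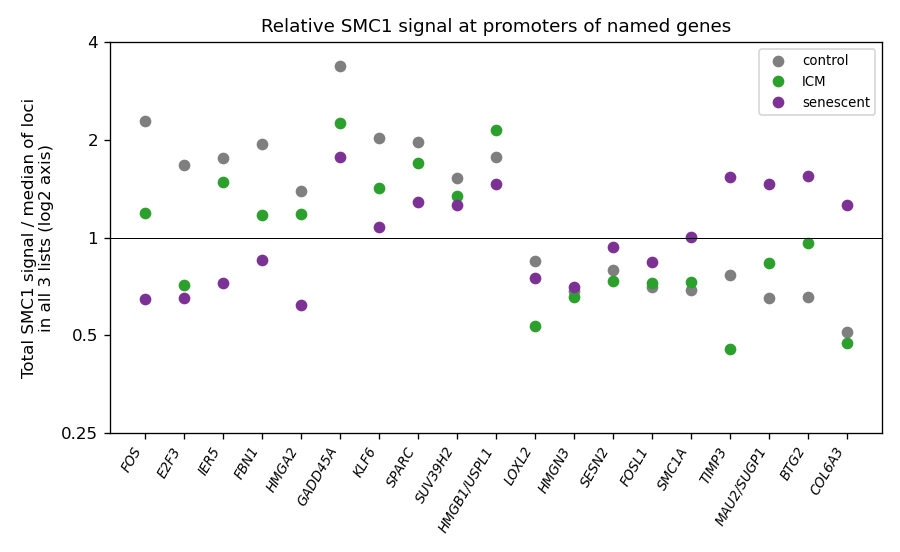
Total SMC1 signal divided by the median over loci of all 3 lists (y axis, log2 axis) at the CTCF-free promoters of genes for cohesin, immediate early, arrest, HMG, heterochromatin and matrix proteins, ordered by senescent against control (x axis); each point is 1 library. FOS lies at the left, with 2.29, 1.19 and 0.647 in the control, ICM and senescent lists, and COL6A3 at the right, with 0.511, 0.472 and 1.26.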

How the data were processed

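Whole IMR90 cultures were profiled by CUT&Tag with antibodies against CTCF and SMC1, 1 library in each group. The study's methods and the submitters' processing notes, which name Bowtie2 2.3.4.1, Picard 2.20.7, deepTools and SEACR 1.3, state that reads were placed on hg38 with E. coli carry-over DNA for calibration. The authors called peaks per library with SEACR in stringent mode at the top 1%, without pooling. The deposited signal values are coverage summed over a peak and its highest coverage, both whole numbers. Each stands for 1 library, depth is unknown, and a smaller or larger list follows from the cut on each library's own regions.

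SMC1 peaks were merged by overlap of 1 bp, and the loci classed by CTCF overlap and by the outermost 5′ end of RefSeq protein-coding genes (GRCh38). The strand came from the RefSeq promoter table for 15843 genes and from GENCODE, by symbol and chromosome, for 3832, and 19630 of 20056 genes were used. The genome sequence at hand was of another build and was not used. Signal of a locus was the sum over its peaks in a list. With 1 library per group, nothing was tested: shares carry Clopper-Pearson and medians order-statistic 95% intervals. The procedure recovered loci and folds built into simulated data. Those data had evenly spaced sites, no floor and widths unrelated to signal, so they checked the code and not the calls made here. Python 3.11.15, pandas 2.3.3, NumPy 2.4.6, SciPy 1.17.1 and matplotlib 3.10.9 were used.

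The loci and the 25 gene lists were chosen with earlier results of these data known. Genes are named by rule: the 10 loci of highest mean percentile, the 5 largest and 5 smallest differences from control, every gene with a locus in 7 of the lists and the highest of the others, the widest and narrowest, and those at the edges of the rule. Some loci that these rules name are not reported here. The genes lower or higher in both comparisons were named after their values were seen. Alternatives changed the merging, list lengths, margins, signal measure, scaling and fold.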

Additional observations from a re-analysis of the deposited data

Results flagged for a closer look

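Each list holds 1 peak on mitochondrial DNA, which was left out of every comparison. Its total signal divided by the summed total signal of the 1526 CTCF-free promoter loci was 1.21 in the control SMC1 list, 2.74 in the ICM list and 3.98 in the senescent list. The ICM and senescent values are listed here because they lie above the control value in data the comparisons do not use. With 1 library per group they have no replicate error.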

How the results depend on the processing

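The number of loci, 1526, was 946 when peaks were joined by 100 bp windows around their summits, 585 with the top part of each SMC1 list, cut at its median rank, and 2444 when the senescent SMC1 list was not required. It stayed within 1.5 times under the other 8 choices. The median percentiles in the control, ICM and senescent lists became 60.1, 47.2 and 49.4 by highest coverage, 60.2, 49.9 and 48.1 by mean coverage, and 49.6, 38.6 and 40.4 when ranked among loci of all 3 lists. Summit windows gave 70.04 and 68.1 in the control and ICM lists, and equal list lengths 59.6 and 57.5 in the ICM and senescent lists.

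Scaling to all loci of a list moved the median of all shared loci by over 0.1 in the log2 differences, to -0.15 for senescent against control and -0.26 for senescent against ICM. Over the 1526 loci it gave -0.29 for senescent against control, -0.08 for ICM against control, and a reversed -0.21 for senescent against ICM. For senescent against control 18 (1.18%) were higher and 166 (10.9%) lower, where 2.2% and 7.74% of shared loci were. For senescent against ICM 25 (1.64%) were higher and 115 (7.54%) lower, where 1.43% and 8.86% of shared loci were. For ICM against control the median was -0.25 by highest coverage, -0.14 by mean coverage and -0.23 scaled to the other shared loci. By mean coverage 5 loci (0.328%) were higher, where 1.82% of shared loci were. For senescent against ICM the median was 0.12 by highest coverage. By mean coverage 40 loci (2.62%) were higher there, where 2.98% of shared loci were. At 1.5-fold, 181 (11.9%) were higher and 287 (18.8%) lower in senescent against control, where 16.6% and 14.5% of shared loci were. In ICM against control 66 (4.3%) were higher and 264 (17.3%) lower, where 10.7% and 11.3% of shared loci were. In senescent against ICM 289 (18.9%) were higher and 169 (11.1%) lower, where 16.1% and 12.8% of shared loci were. With summit windows, which gave 946 loci, 20 (2.11%) were higher in senescent against control, where 4.38% of shared loci were. In ICM against control 33 (3.49%) were lower, where 2.40% of shared loci were. In senescent against ICM 42 (4.44%) were higher and 13 (1.37%) lower, where 4.34% and 2.85% of shared loci were. Under every scaling and measure tried, the medians of both promoter classes lay below that of distal loci without CTCF in ICM and senescent cells against control.

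Midpoints of whole peaks gave median distances to the 5′ end of 173.0, 170.0 and 201.0 bp, against 130.0, 142.5 and 165.0 bp for summits. Summit windows left 1136 genes, and 3831 genes had a locus irrespective of CTCF. Of the 17 largest differences from control that are named, 9 stayed beyond 2-fold by highest coverage and 8 did not. By mean coverage 2 did (AKR1A1 and PCF11), 12 kept their sign only, and the signs at ABCA1 (0.14), UQCC5 (-0.27) and PKM (0.25) were reversed. The cause of these shifts was not tested. No paired analysis was possible because each group has 1 library, and leaving out replicates was not possible for the same reason. Depth is unknown, so absence from a list is not absence of binding.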
